A study of Mus musculus with 8 samples.

Results

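The comparison described here set the E47 knockout against the E12 wild type in cultured mouse aortic smooth muscle cells, gene by gene. It took in 4 of the 8 libraries in the count table, chosen by their genotype labels: 2 of the genotype E47 KO and 2 of E12 WT. Of 55353 lines in the table, 13992 had enough counts to be tested. Both groups were primary vascular smooth muscle cells from the aorta, thawed from frozen stocks and lysed in the dish, and poly(A) RNA was sequenced without strand information. The series also held 2 libraries each of E12 KO and E47 WT, which entered the estimate of the spread between libraries and are quoted only beside the values of this comparison. The labels name no animal, age, sex, allele or treatment for either group. They describe the paired libraries as independent extractions, so the p-values below rest only on how far 2 extractions differ, a spread that may be technical, and each genotype may be a single cell population. The E47 knockout has its own labelled wild type, and the E12 wild type is the other one. Loss of E47 and the origin of the cell population therefore cannot be told apart in any value below.

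E12 and E47 are splice forms of the E protein encoded by Tcf3, a basic helix-loop-helix transcription factor that binds the E-box as a dimer. They share most of the protein and differ in the exon that encodes the DNA-binding and dimerisation domain. Id proteins lack the basic region and form dimers with E proteins that cannot bind DNA, and in vascular smooth muscle this balance is known for its link to the CDK inhibitor p21 and to proliferation. The series title places these libraries in a study of Id3, E protein activity and cell proliferation.

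The exons that set the Tcf3 splice forms apart lie on chromosome 10, minus strand, at chr10:80410398-80410624 and chr10:80412827-80413062 (GRCm38, GENCODE M21). They are shown because they are what distinguishes E12 from E47, while a count per gene adds both. Of 12 coding Tcf3 transcripts in the annotation, 6 code through the first and 4 through the other. Over the aligned length of 236 bases they were 74.2% identical. Capitals mark the longest run they share, 25 bases.
Tcf3 exon at 80410398: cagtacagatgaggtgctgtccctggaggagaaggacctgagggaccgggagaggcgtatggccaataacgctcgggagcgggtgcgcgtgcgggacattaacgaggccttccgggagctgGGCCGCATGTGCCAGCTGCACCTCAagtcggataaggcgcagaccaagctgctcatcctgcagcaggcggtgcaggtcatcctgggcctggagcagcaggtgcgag
Tcf3 exon at 80412827: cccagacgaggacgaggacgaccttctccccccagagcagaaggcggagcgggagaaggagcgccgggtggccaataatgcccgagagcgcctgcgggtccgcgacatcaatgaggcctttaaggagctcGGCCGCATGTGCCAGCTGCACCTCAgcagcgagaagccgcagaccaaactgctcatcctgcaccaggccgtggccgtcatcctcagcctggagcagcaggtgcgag
Levels below are library-scaled read counts (CPM, TMM normalisation), always written as E12 wild-type library 1 and library 2 against E47 knockout library 1 and library 2. Each log2 change is E47 knockout minus E12 wild type, with its standard error (SE) from the fit, and each adjusted p is from edgeR's quasi-likelihood test with Benjamini-Hochberg adjustment over all genes tested. Tcf3 itself was higher in the E47 knockout, at 109 and 107 against 128 and 128 CPM (log2 change 0.24, SE 0.06, edgeR adjusted p = 0.0079). The groups did not overlap. The table has no counts per exon, so the loss of E47 could not be checked here and the label was taken as given. The other E protein genes differed from each other. Tcf4, which encodes the E protein E2-2, stood at 18.6 and 19.5 against 81.5 and 87.5 CPM (log2 change 2.15, SE 0.08, edgeR adjusted p = 3.6e-11), and Tcf12, which encodes HEB, at 97.2 and 103 against 92.9 and 94.9 CPM (log2 change -0.09, SE 0.07, edgeR adjusted p = 0.31). Tcf4 was thus over 4 times its level in the E12 wild type, while Tcf12 did not pass the test. The E47 wild type held more Tcf4 than the E47 knockout, at 98.7 ± 1.81 CPM (mean ± SD, n = 2). Against that wild type the log2 change was -0.23 (SE 0.07, edgeR adjusted p = 0.012). The E12 knockout held 47.5 ± 1.09 CPM.

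The Id genes, the inhibitors of E proteins, did not move one way. Id1 was lower in the E47 knockout, at 181 and 168 against 125 and 143 CPM (log2 change -0.38, SE 0.08, edgeR adjusted p = 0.0012). Id3 was higher, at 212 and 194 against 239.7 and 282 CPM (log2 change 0.36, SE 0.09, edgeR adjusted p = 0.0064), and so was Id2, at 43.4 and 39.5 against 52.4 and 59.4 CPM (log2 change 0.43, SE 0.11, edgeR adjusted p = 0.0067). Id4 was near 3.07 CPM in both groups and did not pass the test. Neither rise held without E47 knockout library 2, where the log2 change was 0.24 for Id3 (adjusted p = 0.11) and 0.34 for Id2 (adjusted p = 0.078). Of the 7 E protein and Id genes, 4 were higher and 1 was lower, or 2 and 1 without that library.

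Library totals ran from 13909230 to 18394466 counts in the 4 libraries. The E12 wild-type pair differed more from each other than any other pair: chi-square per gene was 15.3 there and 4.85 to 5.62 in the other genotypes. In that pair, library 2 was above library 1 by a median of 0.11 (log2) in the genes with the longest exons and below it by a median of 0.09 in those with the shortest (4 classes by exonic length). Values that turn on one E12 wild-type library are therefore given with and without it. Mitochondrial transcripts took 1.11% to 1.38% of the counts. Of the genes tested, 2598 (18.6%) were higher and 2736 (19.6%) lower in the E47 knockout at an adjusted p under 0.05. Among them 833 (5.95%) were over 2-fold higher and 598 (4.27%) over 2-fold lower. With 38.1% of all genes past the test, a single call carries little, so gene groups below are read against these shares and against the median log2 change of all genes, 0.00.

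**Figure D1:**
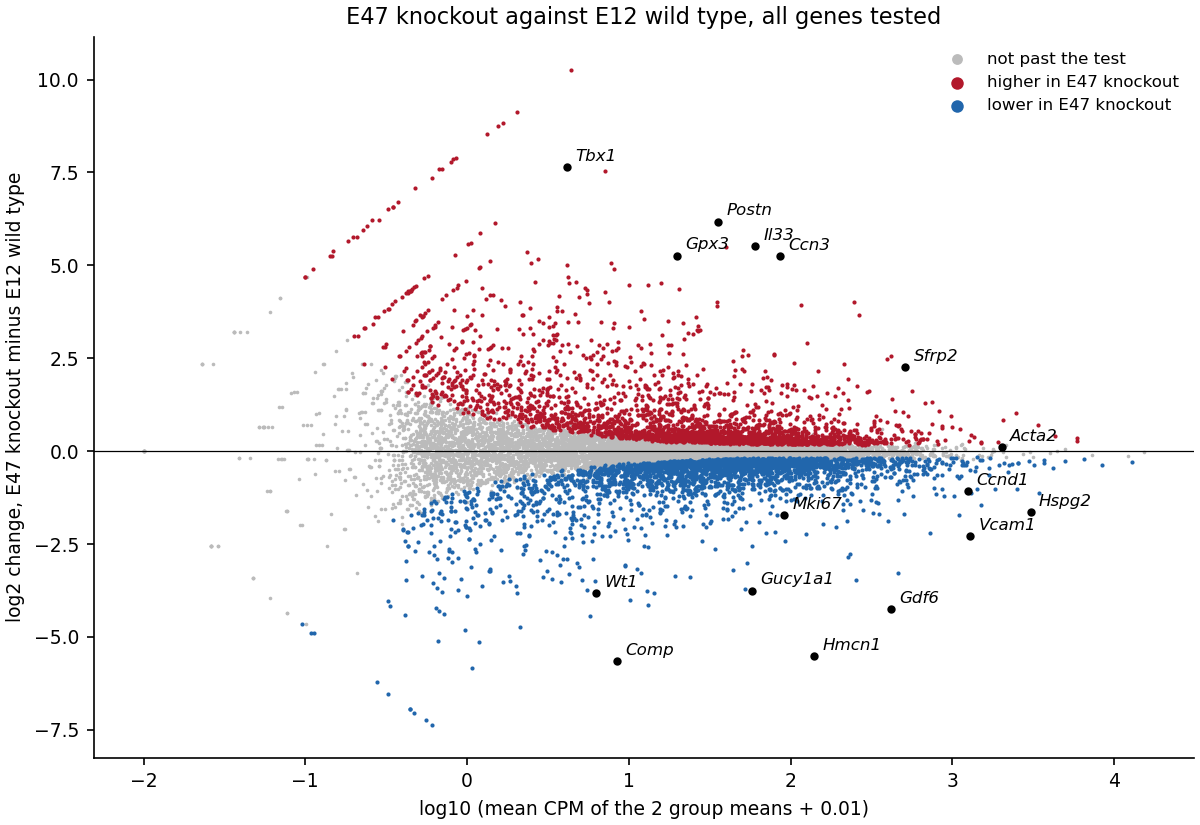
Log2 change (E47 knockout minus E12 wild type) of each of the 13992 genes tested against its mean level in the 2 groups on a log10 axis, with red and blue for genes past the test and grey for the rest. Il33, Ccn3 and Postn stand more than 5 log2 units up, Hmcn1 and Comp more than 5 down, and Acta2 lies among the genes that did not pass; straight lines of points at the left are genes with 0 or few counts in one group.

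The genes of mitosis were lower in the E47 knockout almost as a block. Of 59 G2/M genes, all tested, 55 were lower, 1 was higher and 3 did not pass the test, with a median log2 change of -0.84 against 0.00 for all genes. The libraries of the groups did not overlap for 57 of the 59 in the lower direction, where 33.2% of all genes tested lay apart in that way. The count of lower genes stayed between 53 and 55 under every alternative except the test against a 1.5-fold change, where it was 36. These were mostly falls of less than 2-fold: 12 of the 55 passed 2-fold.

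Mki67, the proliferation antigen Ki-67, had the lowest ratio in the list, at 109 and 172 against 42.6 and 41.98 CPM (log2 change -1.73, SE 0.17, edgeR adjusted p = 1.1e-06). The E12 wild-type libraries differed by more than 1.5 times for this gene, yet both lay above both knockout libraries. Cenpf, a kinetochore protein, stood at 46.6 and 64.96 against 21.99 and 20.8 CPM (log2 change -1.38, SE 0.15, edgeR adjusted p = 3.3e-06). Ccnb2, a mitotic cyclin that activates Cdk1, stood at 33.6 and 35.9 against 14.6 and 12.2 CPM (log2 change -1.37, SE 0.10, edgeR adjusted p = 7.1e-08). Foxm1, the transcription factor that drives many G2/M genes, stood at 49.8 and 57.5 against 24.1 and 24.5 CPM (log2 change -1.14, SE 0.09, edgeR adjusted p = 1.2e-07). Each of these was apart between the groups. The core kinase Cdk1 was lower by less, at 59.2 and 53.7 against 34.4 and 35.2 CPM (log2 change -0.70). Log2 changes were -0.95 for Ccna2 and -0.83 for Ccnb1, the other cyclins that act with it in G2 and M. The mitotic kinases Plk1 and Aurkb were lower by 1.04 and 1.01 log2 units. Cdc20, the activator of the anaphase-promoting complex, changed by -0.92, and Birc5, survivin of the chromosomal passenger complex, by -0.98. Top2a, which untangles sister chromatids, fell from 213 ± 13.2 to 111 ± 5.12 CPM (mean ± SD, n = 2). Anln, the cytokinetic ring protein anillin, had a log2 change of -0.97, and Ncapd2, a condensin subunit, of -0.89. Pttg1, securin, which holds separase until anaphase, was the 1 higher member, at 13.1 and 13.2 against 18.3 and 19.2 CPM (log2 change 0.51, SE 0.11, edgeR adjusted p = 0.0014). Bub3, Spc25 and Psrc1 did not pass, at log2 changes of -0.14, -0.30 and -0.19. Gtse1 was the weakest call (log2 change -0.24, SE 0.07, edgeR adjusted p = 0.019) and was lost without E12 wild-type library 2 or E47 knockout library 1.

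The G1/S and replication genes were lower too, by less. Of 46, 34 were lower, 1 was higher and 11 did not pass, with a median log2 change of -0.41. The G1 cyclin and kinase genes were among them. Ccnd1, cyclin D1, which couples mitogens to the cell cycle, stood at 1723 and 1652 against 843 and 767 CPM (log2 change -1.07, SE 0.07, edgeR adjusted p = 2.4e-08). Cdk6, a kinase partner of D cyclins, stood at 127 and 169.5 against 61.2 and 60.3 CPM (log2 change -1.28, SE 0.11, edgeR adjusted p = 2.7e-07). For both, every knockout library was below every E12 wild-type library. E2f2, an E2F factor of S-phase entry, was low in all and lower in the knockout, at 7.27 and 6.58 against 2.18 and 2.00 CPM (log2 change -1.72). Log2 changes were -1.08 for Pole, the leading-strand polymerase, -0.90 for the licensing factor Cdc6, -0.79 for the helicase subunit Mcm2 and -0.62 for the ribonucleotide reductase subunit Rrm1. Ccne1, cyclin E1, fell from 13.4 ± 0.549 to 8.84 ± 0.214 CPM (mean ± SD, n = 2). The D-cyclin axis did not move as one: Ccnd2 was at 1757 and 1809 against 1820 and 1694 CPM and Cdk4 at 181 and 171 against 179.6 and 184 CPM, and neither passed (adjusted p = 0.86 and 0.63). Gins4 of the replicative helicase was the 1 higher member (log2 change 0.42, SE 0.10, edgeR adjusted p = 0.0032) and was not past the test without E47 knockout library 1. The call for Pcna, the sliding clamp, at -0.25, was lost without E12 wild-type library 1 or E47 knockout library 2. Reads of Ccnd1 may include those of overlapping annotated exons, which cover 23.4% of its exonic length.

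**Figure D2:**
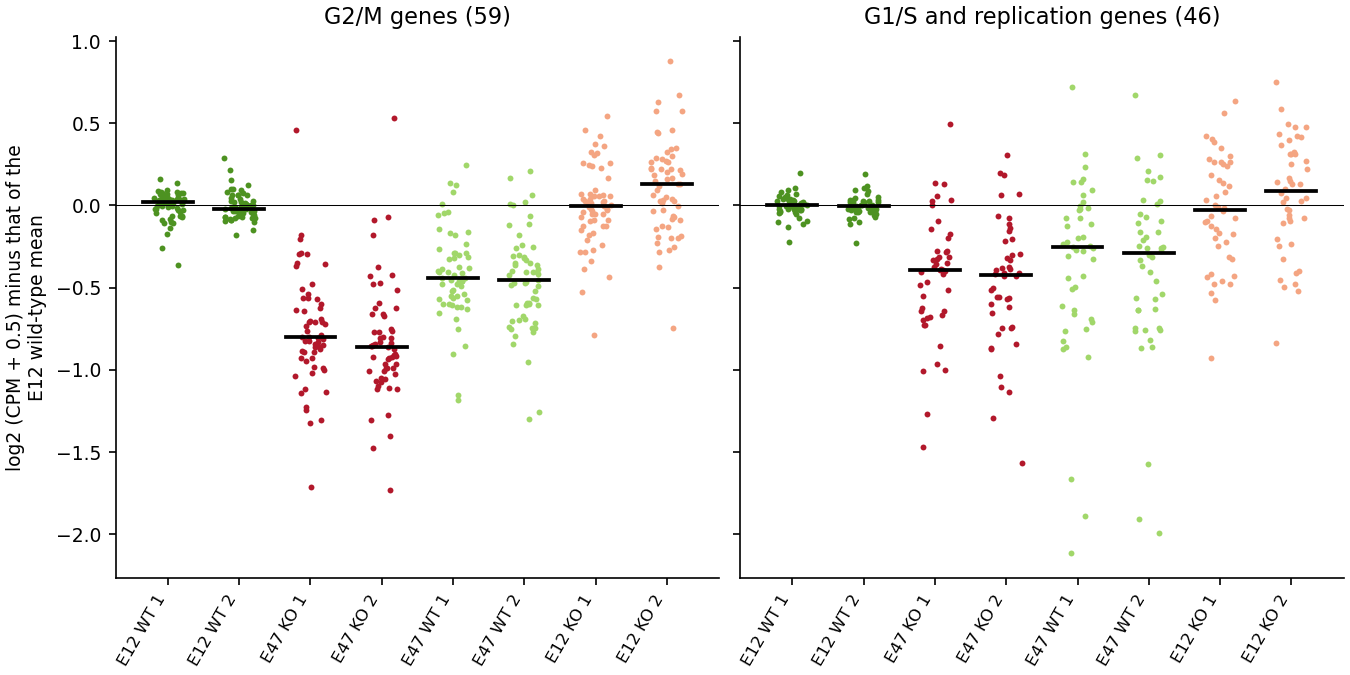
Each point is 1 gene in 1 library: log2 (CPM + 0.5) minus the log2 of its E12 wild-type mean, for the 59 G2/M genes and the 46 G1/S and replication genes, with a bar at the median of each library. In both E47 knockout (KO) libraries nearly all G2/M points lie below 0, the E47 wild-type (WT) libraries lie between, and the E12 knockout libraries scatter around 0.

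The CDK inhibitors, which brake these kinases, showed no shared direction. Cdkn1a, which encodes p21, stood at 362 and 340.2 against 403 and 416 CPM (log2 change 0.22, SE 0.06, edgeR adjusted p = 0.013). The groups did not overlap, but the difference was 1.17 times and the call was lost without E12 wild-type library 2 (log2 change 0.18, adjusted p = 0.11) or without E47 knockout library 2 (0.20, adjusted p = 0.089). Cdkn2d, p19, was lower, at 25.2 and 24.3 against 15.8 and 16.2 CPM (log2 change -0.63, SE 0.10, edgeR adjusted p = 0.0002). Cdkn1b, Cdkn2a, Cdkn2b and Cdkn2c had log2 changes of 0.11, -0.16, -0.17 and -0.10 and did not pass. Without E12 wild-type library 2, Cdkn2a and Cdkn2b passed as lower (log2 change -0.24 and -0.29). Cdkn1c had 4 and 5 counts over the groups and was not tested.

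Promoters of 4 mitotic genes are shown as examples that hold both of 2 short elements common in this list. RefSeq windows for GRCm38.p6, the 250 bases before the annotated start, were found for 49 of the 59 G2/M genes (54 windows). The cell cycle homology region (CHR, the letters TTTGAA on either strand) was in 40.7% of these windows, in 10.7% of the 13236 windows of tested genes and in 16.0% of all 32851 windows in the table. The CCAAT box, searched on both strands, was in 77.8%, against 35.6% and 33.8%. Capitals mark both motifs, which read TTCAAA and, for the box, ATTGG where they lie on the other strand. The windows are Ccnb2 at chr9:70421555-70421804, Cdc20 at chr4:118437344-118437593, Top2a at chr11:99024190-99024439 and Ncapd2 at chr6:125191587-125191836, all minus strand, printed 5′ to 3′ along the gene.
Ccnb2: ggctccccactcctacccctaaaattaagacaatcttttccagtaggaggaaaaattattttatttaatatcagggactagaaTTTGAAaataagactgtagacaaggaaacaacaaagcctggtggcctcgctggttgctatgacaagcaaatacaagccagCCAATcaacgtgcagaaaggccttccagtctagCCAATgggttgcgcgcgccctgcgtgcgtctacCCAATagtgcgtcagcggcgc
Cdc20: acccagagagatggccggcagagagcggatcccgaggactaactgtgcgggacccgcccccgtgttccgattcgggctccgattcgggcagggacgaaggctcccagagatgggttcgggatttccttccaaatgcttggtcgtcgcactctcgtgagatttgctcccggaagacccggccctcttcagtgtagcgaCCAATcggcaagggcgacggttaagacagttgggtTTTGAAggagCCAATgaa
Top2a: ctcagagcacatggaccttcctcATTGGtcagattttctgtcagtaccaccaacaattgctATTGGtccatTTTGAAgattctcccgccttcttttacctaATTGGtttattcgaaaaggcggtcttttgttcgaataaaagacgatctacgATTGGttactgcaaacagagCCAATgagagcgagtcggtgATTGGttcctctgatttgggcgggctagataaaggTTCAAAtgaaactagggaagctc
Ncapd2: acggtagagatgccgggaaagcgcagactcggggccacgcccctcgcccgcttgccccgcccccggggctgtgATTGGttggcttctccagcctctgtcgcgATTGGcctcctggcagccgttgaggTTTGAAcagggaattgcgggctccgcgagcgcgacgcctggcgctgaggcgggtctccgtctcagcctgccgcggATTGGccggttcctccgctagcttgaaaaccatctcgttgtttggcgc
In the Cdc20 window the CHR begins 18 bases before the start and CCAAT boxes begin at 53 and 8. The Ccnb2 window holds 3 CCAAT boxes, at 87, 54 and 21 bases, and a CHR at 167. Log2 changes of the 4 genes were -1.37, -0.92, -0.94 and -0.89 for Ccnb2, Cdc20, Top2a and Ncapd2. The window of Anln, a cytokinesis gene whose log2 change was -0.97, held neither motif. E proteins bind the E-box, the letters CANNTG. They were in 60.3% of the 542 windows of genes over 2-fold lower, in 63.1% of the 712 of genes over 2-fold higher and in 57.2% of tested genes' windows. The form CAGCTG was in 15.3%, 15.0% and 12% in that order. The form CAGGTG, searched on either strand and itself a CANNTG, was in 24.2%, 17.3% and 15.1%. Among the G2/M windows CAGGTG was in 5.56%. Cdkn1a has 2 windows, and that at chr17:29093519-29093768, plus strand, holds 1 CAGGTG, 187 bases before the start, marked in capitals.
Cdkn1a: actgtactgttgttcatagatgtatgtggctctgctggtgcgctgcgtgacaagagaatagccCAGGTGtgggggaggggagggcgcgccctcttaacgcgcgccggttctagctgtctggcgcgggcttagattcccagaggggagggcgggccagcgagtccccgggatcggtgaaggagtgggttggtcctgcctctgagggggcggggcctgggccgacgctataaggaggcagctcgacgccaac
These matches describe letters in a window and say nothing of binding.

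The labelled cell type was checked on smooth muscle contractile genes, of which 31 of 33 were tested. Acta2, smooth muscle actin, was abundant, at 1929 and 1978 against 2117 and 2098 CPM (log2 change 0.11, SE 0.06, edgeR adjusted p = 0.2). Myh11, the smooth muscle myosin heavy chain that marks mature contractile cells, was low in both groups, at 6.06 and 8.82 against 7.43 and 6.42 CPM (log2 change -0.08, SE 0.17, edgeR adjusted p = 0.76). Neither passed the test, nor did Myocd, the coactivator that drives contractile genes (log2 change 0.12, adjusted p = 0.57). Across the list 12 genes were higher in the E47 knockout (38.7%), 5 were lower (16.1%) and 14 did not pass, median log2 change 0.08. Of all genes 18.6% were higher and 19.6% lower. In bulk RNA a lower level could be fewer cells of a type or less RNA per cell, which cannot be told apart.

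The higher contractile genes were led by those of low level in the E12 wild type. Mylk, the myosin light chain kinase, stood at 2.11 and 1.79 against 22.9 and 23.1 CPM (log2 change 3.54, SE 0.14, edgeR adjusted p = 4.1e-11). Cnn1, calponin, stood at 7.72 and 6.95 against 21 and 18.6 CPM (log2 change 1.43, SE 0.11, edgeR adjusted p = 1e-07). Myl9, a regulatory light chain, stood at 21.1 and 23.1 against 69.4 and 64.5 CPM, and Lmod1, a smooth muscle actin nucleator, at 39.7 and 39.5 against 105 and 98.2 CPM, with log2 changes of 1.60 and 1.36. All 4 were apart between the groups. Srf, the transcription factor with which Myocd works, was higher by 0.33 log2 units. Tagln, SM22, had a log2 change of 1.79 from 1.71 ± 0.198 CPM (mean ± SD, n = 2), but 67.9% of its exonic length overlaps another gene, so its counts are uncertain. The 5 lower genes were lower by less than 2-fold: Vcl, vinculin, by 0.66, Cald1, caldesmon, by 0.31 and Tpm1, a tropomyosin, by 0.26 log2 units. The calls for Cald1 and Tpm1 were lost without E47 knockout library 2, where 2 genes of the list were lower. Levels in the E47 wild type were far above both groups for Mylk (169.5 ± 4.55 CPM) and Cnn1 (104 ± 4.16 CPM).

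Genes that mark other cells of the vessel wall or of body cavity linings gave the largest medians among lists with 5 or more tested members. Of 12 mesothelial and epithelial markers tested, 9 were lower, each over 2-fold, and 3 were higher, with a median log2 change of -1.77. Wt1, a transcription factor of mesothelium, stood at 11.2 and 12.03 against 0.832 and 0.802 CPM (log2 change -3.81, SE 0.23, edgeR adjusted p = 1.5e-08). Lrrn4, a mesothelial surface protein, stood at 95.2 and 98.3 against 6.50 and 8.56 CPM (log2 change -3.70, SE 0.11, edgeR adjusted p = 3.2e-12). Bnc1, basonuclin, stood at 79.2 and 79.5 against 9.04 and 8.09 CPM (log2 change -3.20). In all 3 the knockout libraries were far below the E12 wild-type ones. Msln, mesothelin, was at 214 and 196 against 42.4 and 45.6 CPM, Upk1b, a uroplakin, at 413 and 404 against 62.9 and 57.4 CPM and the keratin Krt19 at 409 and 364 against 148 and 156 CPM, with log2 changes of -2.22, -2.76 and -1.34. Cdh1, E-cadherin, went the other way, at 10.3 and 11.4 against 34.2 and 38.4 CPM (log2 change 1.75, SE 0.12, edgeR adjusted p = 2.5e-08). Krt18 and Krt14 were called higher from levels near 1 CPM or less, and neither call held without E47 knockout library 1. That for Krt18 was also lost without E12 wild-type library 1 or E47 knockout library 2. The summed level of the markers was 1956 and 1833 against 565 and 581 CPM. The part of such cells in the other differences was not tested.

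Adventitial fibroblast and progenitor markers ran the other way. Of 13 tested, 12 were higher and the other, Pi16, did not pass, with a median log2 change of 2.15. Cd34, a progenitor surface marker, stood at 1.79 and 1.79 against 18.1 and 18.1 CPM (log2 change 3.33, SE 0.15, edgeR adjusted p = 1.9e-10). Ly6a, which encodes Sca1, stood at 27.6 and 23.6 against 110.0 and 118 CPM (log2 change 2.15, SE 0.09, edgeR adjusted p = 1.7e-10). Serpinf1, the secreted factor PEDF, stood at 1.08 and 1.12 against 20.4 and 29.8 CPM (log2 change 4.49, SE 0.27, edgeR adjusted p = 5.8e-09). The matrix proteins Smoc2 and Col14a1 had log2 changes of 2.28 and 1.13, and the small proteoglycan Dcn, decorin, of 0.63. Pdgfra, the PDGF receptor typical of fibroblasts, rose from 2.68 and 2.77 to 7.17 and 10.96 CPM. Lum, lumican, was called at levels near 1 CPM or less and was not past the test without E12 wild-type library 2 or without E47 knockout library 1. The summed level went from 740 and 733 CPM to 1251 and 1304 CPM. Leaving out E47 knockout library 2 called all 13 higher.

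Lymphocyte markers were at or near 0, while some macrophage markers were at low levels. None of 10 lymphocyte markers reached the level for testing, and of 15 macrophage markers 5 did. Of these Cd14 had the highest level, at 6.13 and 7.48 against 7.64 and 8.56 CPM, and did not pass. Cd68 and Csf1r were lower (log2 change -1.43 and -1.50), from means of 2.89 and 1.58 CPM in the E12 wild type. Csf1r had 46 counts over the E12 wild type and 19 over the E47 knockout. The 2 calls did not both hold when either E47 knockout library was left out. Adgre1, the macrophage antigen F4/80, had no count in the 4 libraries. Summed endothelial markers stood at 47.2 and 47.5 against 23.4 and 21.7 CPM, mostly Flt1 (33.6 and 36.1 against 15.3 and 16.4 CPM). Of 14 tested, 5 were lower (35.7%) and 1, Erg, was higher (7.14%). Pecam1, the endothelial junction protein, was at 1.85 and 2.24 against 0.572 and 0.535 CPM, while the E47 wild type held 202 ± 12.03 CPM (mean ± SD, n = 2). Of 7 pericyte markers tested 5 were higher (71.4%) and 1 lower (14.3%), where 18.6% of all genes were higher and 19.6% lower. Rgs5, a regulator of G protein signalling, was higher, at 15.5 and 13.1 against 230.3 and 206 CPM (log2 change 3.93, SE 0.15, edgeR adjusted p = 5.1e-11). It was at 268 ± 20.9 CPM in the E47 wild type. Cspg4, the proteoglycan NG2, was lower, at 394 and 488 against 258 and 313 CPM (log2 change -0.63, SE 0.11, edgeR adjusted p = 0.0004). The count of higher markers fell to 2 or 3 when any of E12 wild-type library 1 and the 2 E47 knockout libraries was left out. Xist had 1 count in each group, and 4 Y-linked genes were expressed in both. Of these Eif2s3y passed the test, at 30.4 and 27.8 against 34.9 and 36.7 CPM (log2 change 0.29, SE 0.08, edgeR adjusted p = 0.01), a call lost without E12 wild-type library 2 or E47 knockout library 2. Log2 changes of the other Y-linked genes were -0.14 for Ddx3y, -0.19 for Kdm5d and -0.01 for Uty. The E47 wild type differed here, with 300 counts of Xist (7.51 ± 0.293 CPM, mean ± SD, n = 2). The same Y-linked genes were expressed in it.

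**Figure D3:**
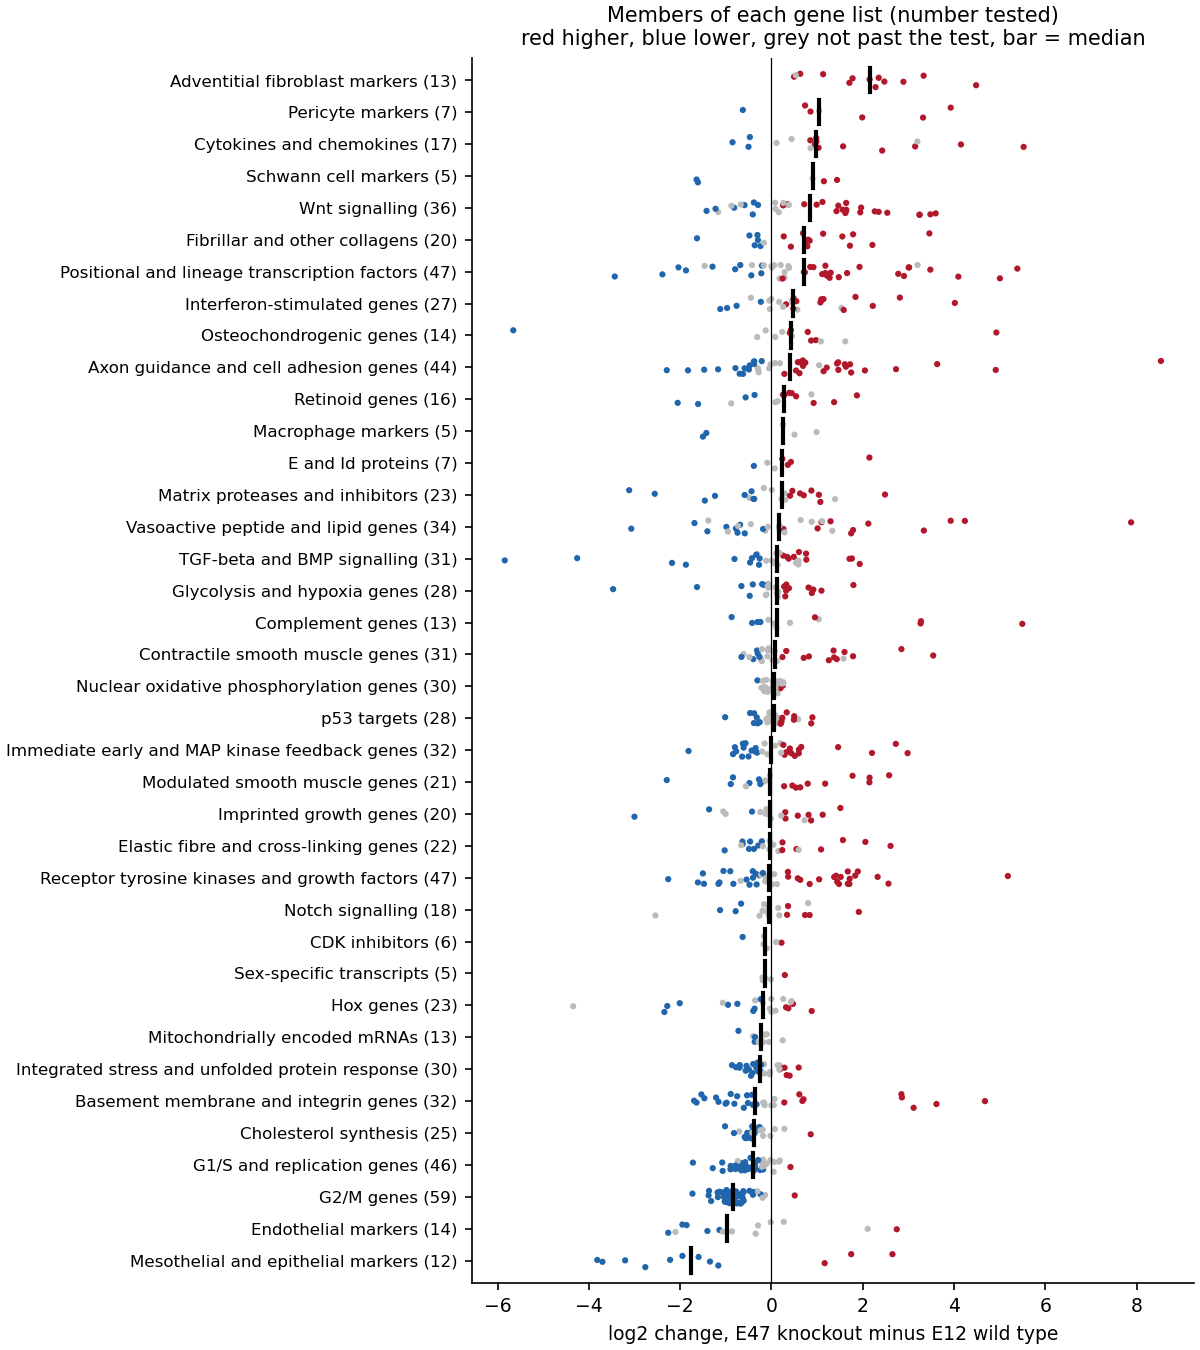
Log2 change of each tested member (points) of the gene lists with 5 or more tested members, ordered by list median (black bar), with the number tested in brackets. Adventitial fibroblast markers lie furthest up (median 2.15) and mesothelial and epithelial markers furthest down (-1.77), while the 59 G2/M genes form a tight group around -0.84.

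The matrix of the E47 knockout differed from that of the E12 wild type gene by gene. Of 20 collagen genes, all tested, 13 were higher (65%), 6 were lower (30%) and 1 did not pass, median log2 change 0.72. Among all genes 18.6% were higher and 19.6% lower. Col3a1, a fibrillar collagen of the vessel wall, stood at 1431 and 1519 against 2642 and 2632 CPM (log2 change 0.84, SE 0.07, edgeR adjusted p = 2.6e-07). Col6a3, of microfibrillar collagen VI, stood at 15.4 and 19.96 against 74.7 and 88.8 CPM (log2 change 2.21, SE 0.11, edgeR adjusted p = 9.2e-10), and Col11a1, a fibril-nucleating collagen, at 36.8 and 42.98 against 141 and 134 CPM (log2 change 1.79, SE 0.10, edgeR adjusted p = 2.2e-09). Col15a1, a collagen of the basement membrane zone, was at 1.34 and 1.34 against 13.3 and 16.6 CPM (log2 change 3.46). In these 4 the groups were apart. Col1a2 was higher by 0.27 while its partner chain Col1a1 was lower, at 13730 and 14810 against 10620 and 12470 CPM (log2 change -0.31, SE 0.09, edgeR adjusted p = 0.011), a call that was lost without E47 knockout library 1. Without E47 knockout library 2 the lower collagens numbered 2, as the calls for Col5a2 and Col8a2 were among those lost.

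Basement membrane and integrin genes were more often lower: 17 lower (53.1%), 9 higher (28.1%) and 6 not past the test of 32. Their median log2 change was -0.37. In the longest of 4 classes by exonic length, 27.9% of all genes tested were lower and 18.9% higher. The shortest class had 12.2% lower and 15.7% higher. The part of length in this list was not tested. Hspg2, perlecan, the main heparan sulphate proteoglycan of basement membranes, stood at 2917 and 6327 against 1303 and 1663 CPM (log2 change -1.64, SE 0.24, edgeR adjusted p = 7.5e-05). The E12 wild-type libraries differed 2.17 times, and without E12 wild-type library 2 the log2 change was -0.98. Itga3, a laminin-binding integrin, stood at 737 and 793 against 227 and 246 CPM (log2 change -1.69, SE 0.07, edgeR adjusted p = 1.1e-10). Among laminin chains, Lama5, Lama2 and Lamb1 had log2 changes of -1.21, -1.53 and -1.16, and Nid1, nidogen, which links laminin to collagen IV, of -0.89. Lama4, a laminin chain of vessels and fibroblasts, went up instead, at 3.64 and 4.26 against 49.6 and 46.7 CPM (log2 change 3.62, SE 0.12, edgeR adjusted p = 9e-12). Itga8 and Itga9, alpha chains that bind tenascin and related ligands, had log2 changes of 2.85 and 2.86. Col4a1 and Itgb1 did not pass (log2 change 0.00 and 0.07). Of 23 proteases and inhibitors tested, 8 were higher and 8 lower, 34.8% each, where 18.6% of all genes were higher and 19.6% lower. Mmp2, gelatinase A, stood at 113 and 126 against 656 and 688 CPM (log2 change 2.49, SE 0.07, edgeR adjusted p = 3.2e-12), and Mmp3, stromelysin, at 103 and 94.4 against 15.1 and 18.7 CPM (log2 change -2.56, SE 0.09, edgeR adjusted p = 3.4e-11). In the E47 wild type Mmp2 was at 657 ± 12.8 CPM, near the knockout, and Mmp3 at 0.410 ± 0.0282 CPM (mean ± SD, n = 2). Eln, elastin, fell from 1050 ± 26.8 to 677 ± 0.0760 CPM, and Loxl2, a collagen cross-linking oxidase, from 1156 ± 34.9 to 568 ± 13.5 CPM (mean ± SD, n = 2).

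In the Wnt pathway, where secreted ligands act through Frizzled receptors and are held back by secreted antagonists, 21 of 36 tested genes were higher, 7 were lower and 8 did not pass. That is 58.3% higher and 19.4% lower, where 18.6% of all genes were higher and 19.6% lower. The median log2 change was 0.86, and 17 of the 21 passed 2-fold. Antagonists led by level. Sfrp2, a secreted Frizzled-related protein, stood at 175 and 178 against 766 and 929 CPM (log2 change 2.26, SE 0.09, edgeR adjusted p = 7.6e-11). Sfrp1 stood at 27.9 and 27.4 against 111 and 105 CPM (log2 change 1.97, SE 0.07, edgeR adjusted p = 3.4e-11) and Dkk3, of the Dickkopf family, at 4.21 and 6.05 against 46.9 and 49.3 CPM (log2 change 3.24, SE 0.13, edgeR adjusted p = 5e-11). The antagonists did not move as one, since Sfrp4 was lower, at 316 and 297 against 109.8 and 119 CPM (log2 change -1.42, SE 0.07, edgeR adjusted p = 5.9e-10), and Frzb was lower too (log2 change -0.82). Among ligands and agonists, Rspo2, an R-spondin that amplifies Wnt signals, went from 1.08 and 1.12 to 12.5 and 12.3 CPM, and Wnt16 from 0.830 and 1.20 to 6.34 and 5.28 CPM. Wnt9a was lower, from 67.8 and 68.2 to 30.2 and 27.9 CPM. The receptors Fzd1, Fzd2 and Fzd8 were higher by 0.99, 0.72 and 1.12 log2 units. Ccn5, a matricellular protein and known Wnt target, had a log2 change of 1.62, and Ctnnb1, beta-catenin, of 0.26.

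In the TGF-beta and BMP list of 31 tested, 10 genes were higher and 10 lower (32.3% each), and 11 did not pass. The median was 0.13. Among all genes 18.6% were higher and 19.6% lower. Gdf6, a BMP ligand, showed the smallest p-value of all genes named. It stood at 788 and 792 against 41.4 and 41.4 CPM (log2 change -4.25, SE 0.08, edgeR adjusted p = 3.6e-14), with nearly equal libraries within each group. Gdf6 lies at chromosome 4, 9844372 to 9862345. Bmp6 was also lower, at 47.4 and 54.5 against 14.97 and 12.6 CPM (log2 change -1.87), and Bmp4 by less (log2 change -0.27, SE 0.07, edgeR adjusted p = 0.0045), a call lost without E47 knockout library 2. Nog, which encodes the BMP antagonist noggin, had 60 counts over the E12 wild type and 1 over the E47 knockout. Smad6, an inhibitory Smad, was lower by 0.81 log2 units. Eng, endoglin, a co-receptor of this family, was higher, at 58.2 and 67.2 against 211 and 215 CPM (log2 change 1.76, SE 0.08, edgeR adjusted p = 1.7e-10), as were Fst, follistatin, an activin antagonist (log2 change 1.94), Inhba, an activin subunit (0.77), and Tgfb3 (0.76). Tgfb1 was lower (-0.43).

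Of 17 cytokine and chemokine genes tested, 10 were higher (58.8%), 3 were lower (17.6%) and 4 did not pass, median log2 change 0.98. The shares of all genes were 18.6% higher and 19.6% lower. Il33, an alarmin held in the nucleus of stromal cells, stood at 2.68 and 2.39 against 119 and 116 CPM (log2 change 5.53, SE 0.11, edgeR adjusted p = 7.1e-14), which is 46.1 times higher. It lies at chromosome 19, 29925114 to 29960718 (GRCm38). Both E47 knockout libraries lay far above either wild type, as the E47 wild type held 0.654 ± 0.0128 CPM (mean ± SD, n = 2). The E12 knockout was also above its wild type, at 41.6 ± 2.45 CPM (log2 change 4.03, SE 0.12, edgeR adjusted p = 3.2e-12). Cx3cl1, fractalkine, stood at 12.8 and 14.9 against 71.4 and 77.7 CPM (log2 change 2.43, SE 0.10, edgeR adjusted p = 6.4e-11). The E47 wild type held 72.9 ± 1.17 CPM of it, near the knockout. Cxcl12, a chemokine for Cxcr4, was abundant and higher, at 1613 and 1637 against 3320 and 3336 CPM (log2 change 1.03, SE 0.06, edgeR adjusted p = 5.1e-09), and its scavenger receptor Ackr3 went from 0.574 and 0.449 to 8.84 and 9.83 CPM. Ccl2 and Ccl7, monocyte chemokines, and Il6 were higher by 0.99, 0.98 and 0.95 log2 units, and the Il6 call was lost without E47 knockout library 1. Csf1, the macrophage growth factor, was lower, at 1454 and 1541 against 1077 and 1039 CPM (log2 change -0.50), and so was Lif, of the IL-6 family (-0.85). Il18 was called lower (log2 change -0.47, SE 0.17, edgeR adjusted p = 0.044) but not without E12 wild-type library 1 or E47 knockout library 1. Against the E47 wild type 9 of the 17 were higher and 5 lower, where 27.7% of all genes were higher and 27.5% lower. Directions turned there for Lif and Il18 (log2 change 1.20 and 3.78) and for Cxcl12 (-0.36), while Csf1 stayed lower (-0.93). Vcam1, a leukocyte adhesion molecule, was far lower than in the E12 wild type, at 2219 and 2071 against 428 and 448 CPM (log2 change -2.29, SE 0.07, edgeR adjusted p = 7.6e-12).

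Complement genes gave 4 higher and 4 lower of 13, 30.8% each, where 18.6% of all genes were higher and 19.6% lower. Of 27 interferon-stimulated genes 13 were higher (48.1%) and 4 lower (14.8%, near the share of all genes), with a median log2 change of 0.48. Without E47 knockout library 1 the lower complement genes numbered 2. C4b, a complement component, stood at 1.72 and 1.72 against 65.1 and 91.6 CPM (log2 change 5.5, SE 0.23, edgeR adjusted p = 9.6e-11). Masp1, a lectin-pathway protease, stood at 4.53 and 5.91 against 48.96 and 50.9 CPM (log2 change 3.27, SE 0.11, edgeR adjusted p = 1.2e-11), and Serping1, the C1 inhibitor, was higher by 3.28 log2 units. H2-K1 and H2-D1, class I antigen-presenting molecules, were lower, at log2 changes of -1.12 and -0.76. Ifit1, an interferon-induced RNA-binding protein, had 7 counts over the E12 wild type and was higher, at 0.383 and 0.0747 against 3.95 and 4.08 CPM (log2 change 4.02, SE 0.41, edgeR adjusted p = 1.7e-06). Its log2 change was 5.62 without E12 wild-type library 1 and 3.36 without E12 wild-type library 2. Irf9, a subunit of the interferon-activated factor ISGF3, stood at 9.32 and 10.5 against 21.1 and 22.7 CPM (log2 change 1.14, SE 0.11, edgeR adjusted p = 7e-07). Ifitm3, an interferon-induced membrane protein, was higher, at 39.4 and 34.6 against 72.8 and 86.4 CPM (log2 change 1.10, SE 0.12, edgeR adjusted p = 4.3e-06). B2m, the light chain of class I molecules, did not pass (log2 change -0.04).

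Growth factors and their receptors split, with 20 higher (42.6%), 17 lower (36.2%) and 10 not past the test of 47. Of all genes 18.6% were higher and 19.6% lower. Vegfd, a lymphangiogenic growth factor, stood at 119.5 and 121 against 656 and 765 CPM (log2 change 2.56, SE 0.08, edgeR adjusted p = 5.7e-12). Pdgfrb, the PDGF receptor of mural cells, stood at 214 and 249 against 569 and 666 CPM (log2 change 1.42, SE 0.09, edgeR adjusted p = 7.7e-09), and Pdgfb, one of its ligands, was lower at 62.02 and 59.95 against 29.4 and 29.6 CPM (log2 change -1.05, SE 0.08, edgeR adjusted p = 6.1e-08). Kitl, stem cell factor, was higher by 1.84 log2 units and Gas6, the ligand of Axl, by 1.38. The IGF-binding protein Igfbp3 stood at 96.03 and 102 against 254 and 297 CPM (log2 change 1.48). Fgfr3, an FGF receptor, was lower (log2 change -1.48). Igf1r was called lower (log2 change -0.41, SE 0.13, edgeR adjusted p = 0.024), but its log2 change was -0.09 without E12 wild-type library 2, and the call was also lost without either E47 knockout library. In the MAP kinase feedback and immediate early list, 13 genes were higher and 13 lower of 32, 40.6% each. Egr2 and Egr3, early growth response factors, went from 1.02 and 1.64 to 10.7 and 10.1 CPM and from 2.17 and 2.17 to 14.4 and 14.4 CPM. Spry1, Spry2 and Spry4, the Sprouty brakes on receptor signalling, were lower by 1.81, 0.77 and 0.80 log2 units, and Myc by 0.57.

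Transcription factors of position and lineage also set the groups apart, with a median log2 change of 0.71. Of 47 tested, 24 were higher (51.1%), 10 lower (21.3%, near the share of all genes) and 13 did not pass. Foxd1, a forkhead factor of stromal progenitors, stood at 4.91 and 4.71 against 39.3 and 38.2 CPM (log2 change 3.01, SE 0.12, edgeR adjusted p = 5.1e-11). Foxf1 and Foxf2, forkhead factors of visceral mesenchyme, went from 0.638 and 0.748 to 8.58 and 6.82 CPM and from 0.766 and 0.748 to 6.50 and 5.82 CPM. Lhx9 went from 0.191 and 0.299 to 7.75 and 8.22 CPM, and Prrx1, a factor of limb and craniofacial mesenchyme, from 51.8 and 51.8 to 159 and 168 CPM. Gata6, a factor of vascular smooth muscle, was lower, at 417 and 432 against 263 and 267 CPM (log2 change -0.68, SE 0.06, edgeR adjusted p = 5.5e-07). Nkx2-3, a factor of gut and spleen mesenchyme, was lower at 15.4 and 17.6 against 3.59 and 2.61 CPM (log2 change -2.39, SE 0.17, edgeR adjusted p = 4e-08). Gata4 fell from 7.02 and 5.08 to 0.312 and 0.869 CPM; its log2 change was -3.43 with all libraries, -2.80 without E47 knockout library 1 and -4.26 without library 2. Of 23 Hox genes tested, 4 were higher (17.4%) and 8 lower (34.8%), where 18.6% of all genes were higher and 19.6% lower. Hoxa9 and Hoxa10 were lower by 2.34 and 2.28 log2 units and Hoxb4 was higher by 0.88. Without E47 knockout library 1 the lower Hox genes numbered 5, and without library 2 the higher ones numbered 2.

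Among all genes at 2 CPM or more in one group, the largest differences included genes with hardly a count on one side. Postn, periostin, a matricellular protein of remodelling mesenchyme, stood at 0.893 and 1.05 against 66.3 and 74.3 CPM (log2 change 6.18, SE 0.14, edgeR adjusted p = 1.4e-13). Ccn3, a matricellular protein that restrains smooth muscle growth, stood at 4.91 and 3.89 against 167 and 171 CPM (log2 change 5.25, SE 0.12, edgeR adjusted p = 1.3e-13). Gpx3, a secreted glutathione peroxidase, went from 1.02 and 0.972 to 32.8 and 44.6 CPM. Plac8 and Tbx1, a T-box factor of the pharyngeal arches, had 2 and 1 counts over the E12 wild type and stood at 14.3 and 13.9 CPM and 7.95 and 8.62 CPM in the knockout. Sparcl1, hevin, had no count in the E12 wild type against 3.59 and 4.48 CPM in the knockout libraries, at least 38.5-fold higher when 3 counts over the group are taken as the floor. It had no count in the E47 wild type or the E12 knockout either. Xlr3b, likewise without a count in the E12 wild type, was at least 85.5-fold higher, at 9.20 and 8.36 CPM, and belongs to a family of near-identical copies, so its counts are uncertain. In all, 15 genes had 3 counts or fewer over the E12 wild type and a mean of at least 2 CPM in the E47 knockout.

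The reverse class held 2 genes, Nog and Eef1a2, a translation elongation factor of nerve and muscle. Among genes with a mean of at least 2 CPM over the 4 libraries, the largest differences downwards began with Comp, a cartilage matrix protein. Comp stood at 15.6 and 17.6 against 0.260 and 0.401 CPM (log2 change -5.66, SE 0.30, edgeR adjusted p = 1.2e-09). Nog, below that mean, had a log2 change of -5.84. Hmcn1, hemicentin, a giant basement membrane protein, stood at 154 and 392 against 4.83 and 7.29 CPM (log2 change -5.52, SE 0.38, edgeR adjusted p = 2.2e-08). Its E12 wild-type libraries differed 2.54 times, and without library 2 the log2 change was -4.70. Gucy1a1, a subunit of the nitric oxide receptor of smooth muscle, stood at 104 and 109 against 7.38 and 8.56 CPM (log2 change -3.75, SE 0.11, edgeR adjusted p = 2.7e-12). Cntn2, an axonal adhesion protein, stood at 24.8 and 28.7 against 1.98 and 1.74 CPM (log2 change -3.83, SE 0.16, edgeR adjusted p = 9.2e-11), and Dync1i1, a dynein chain, went from 19.4 and 19.1 to 1.25 and 1.14 CPM. Gpr39, a zinc-sensing receptor, was lower by 4.14 log2 units, with 39.9% of its exonic length under another gene.

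Genes of protein folding and of sterol synthesis were lower by small amounts. In the integrated stress and unfolded protein response list, 17 of 30 were lower and 5 higher (3 without E47 knockout library 2), median log2 change -0.25. Hspa5, the chaperone BiP, stood at 1647 and 1616 against 1139 and 1123 CPM (log2 change -0.53, SE 0.06, edgeR adjusted p = 8.8e-06), and Sdf2l1, of the same compartment, was lower by 0.86 log2 units. Atf4, the effector of the integrated stress response, was lower (log2 change -0.33, SE 0.07, edgeR adjusted p = 0.0012). Its targets did not move as one. Trib3 and Sesn2 were higher (log2 change 0.60 and 0.34), Chac1 and Mthfd2 were lower (-0.77 and -0.70) and Asns did not pass (-0.16). In cholesterol synthesis, 16 of 25 were lower and 1 higher, median -0.39. Sqle, squalene epoxidase, was the higher member, at 75.6 and 78.04 against 141 and 138 CPM (log2 change 0.86, SE 0.07, edgeR adjusted p = 8.4e-08). Without E47 knockout library 2, 10 of the 25 were lower. Nuclear genes of oxidative phosphorylation moved little: 2 of 30 were higher and 2 lower, so 13.3% were called against 38.1% of all genes. These 4 calls were lost when either E47 knockout library was left out, and E12 wild-type libraries changed them too: 5 higher without library 1, and 4 lower without library 2. Of 13 mitochondrially encoded mRNAs 3 were lower, 9 without E12 wild-type library 1, 1 without E12 wild-type library 2 and 1 without E47 knockout library 2.

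**Figure D4:**
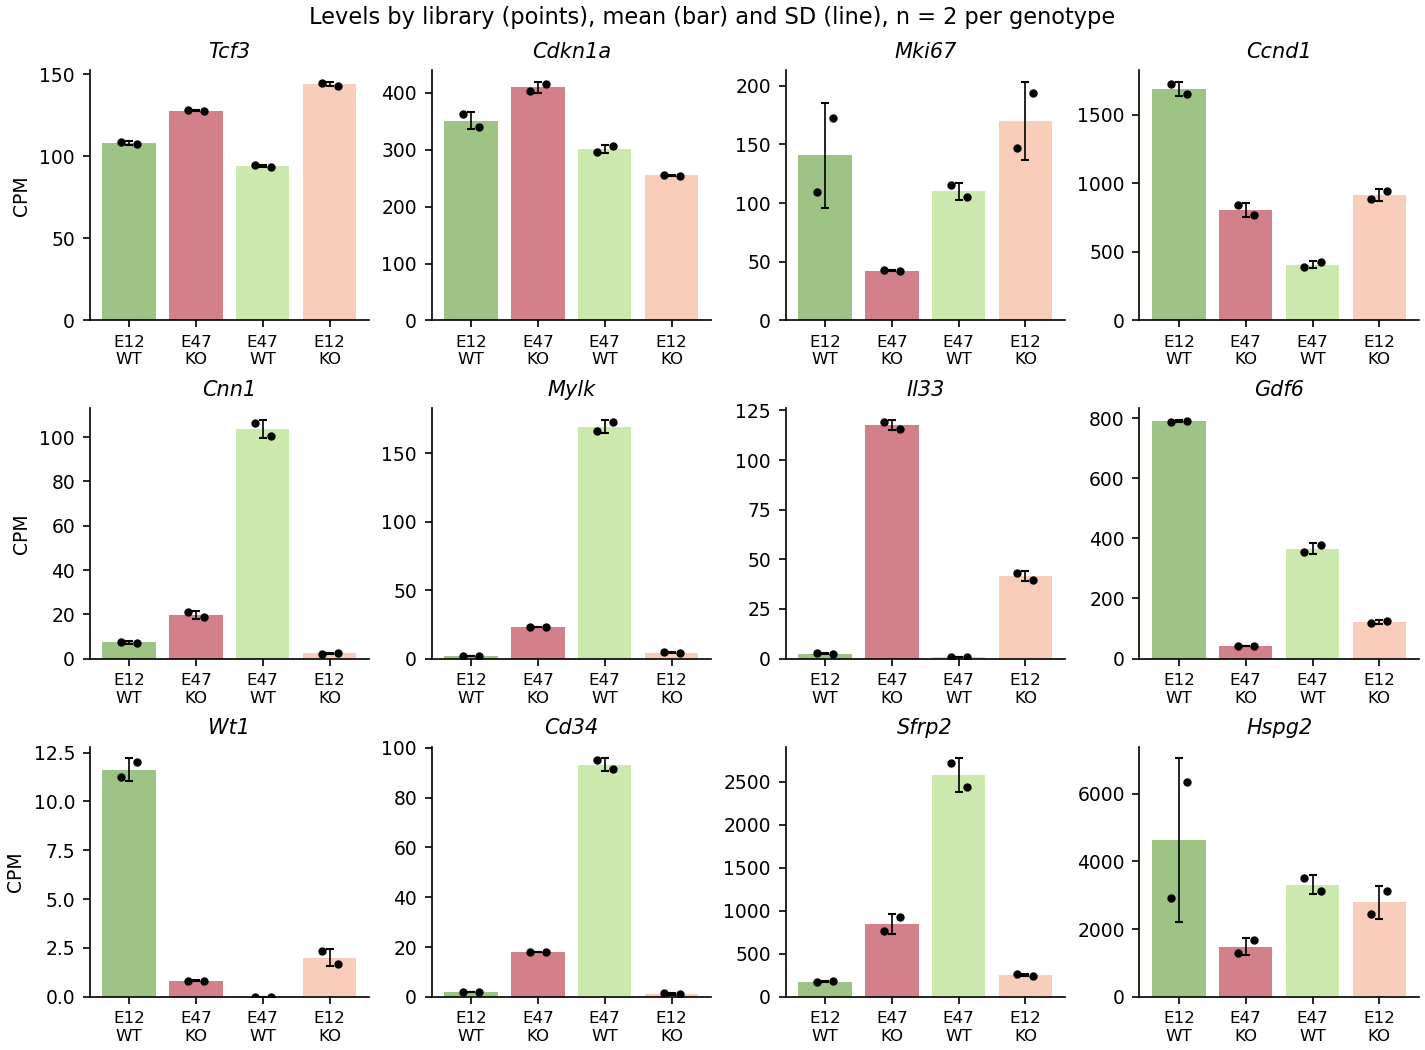
Level (CPM) of 12 genes in each library (points) of the 4 genotypes, with the group mean (bar, from 0) and SD (line), n = 2. Mki67 and Gdf6 are lowest in the E47 knockout (KO) and Il33 is highest there, whereas Cnn1, Mylk, Cd34 and Sfrp2 lie between the E12 and E47 wild types (WT).

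The E47 knockout was then set beside its own labelled wild type. These comparisons share the knockout libraries, so their values are given side by side and are not independent. Against the E47 wild type 55.2% of genes passed the test, and the E12 and E47 wild types themselves differed at 55.4%, both more than the 38.1% here. G2/M genes were lower in both comparisons of the E47 knockout, 55 of 59 against the E12 wild type (median -0.84) and 43 of 59 against the E47 wild type (median -0.39), where 27.5% of all genes were lower. The E47 wild type had 46 of the 59 below the E12 wild type (median -0.44), where 27.8% of all genes were lower. In the E12 knockout 13 were above and 6 below the E12 wild type (median 0.07), where 21.9% of all genes were higher and 24.5% lower. Mki67 was at 109.9 ± 7.31 CPM in the E47 wild type and 170.0 ± 32.9 CPM in the E12 knockout (mean ± SD, n = 2).

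Counts of other groups differed with the reference. Mesothelial and epithelial markers, 9 of 12 lower here, were 10 of 12 higher against the E47 wild type (median 3.28), where 27.7% of all genes were higher. Contractile genes, 12 higher and 5 lower here, were 2 higher and 24 lower of 31 there (median -0.88). Endothelial markers, 1 higher and 5 lower of 14 here, were all 14 lower there (median -5.55), where 27.5% of all genes were lower. Nuclear oxidative phosphorylation genes, 2 higher and 2 lower here, were 26 of 30 higher there (median 0.42). By rule, the genes with the largest differences from both wild types in one direction were listed. Il33, Igfbp6, Plac8, Ces1d and Sparcl1 were above both, and Gdf6, Trf, Pcdhgb4, Cdh23 and Crct1 below both. Igfbp6, an IGF-binding protein, went from 0.0638 and 0.224 CPM in the E12 wild type to 4.11 and 6.55 CPM in the knockout and was at 0.0975 ± 0.138 CPM in the E47 wild type (mean ± SD, n = 2). Its log2 change of 5.18 was 4.5 without E12 wild-type library 1 and 6.21 without library 2. Gdf6 was at 366 ± 17.6 CPM in the E47 wild type and 122 ± 5.28 CPM in the E12 knockout, so the E47 knockout was the lowest of the 4 genotypes. Trf, transferrin, went from 44.1 and 42.8 to 3.95 and 4.48 CPM and Pcdhgb4, a clustered protocadherin, from 4.72 and 5.98 to 0.364 and 0.668 CPM, but 63.5% and 38.3% of their exonic lengths overlap other genes. Cdh23, a cadherin of hair cells, was lower by 2.93 log2 units. Crct1, of the epidermal cornified envelope, was lower by 2.80, or by 3.96 without E47 knockout library 1.

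The direction of the calls differed between chromosomes. On chromosome 8, 30.1% of the 743 genes tested were higher and 9.96% lower, and on chromosome 18, 32.8% and 11.6%. Chromosome 9 gave the opposite, 10.5% higher and 29.8% lower, and chromosome 5 gave 9.64% and 25.9%. The shifts were small: among genes at 5 CPM or more, the median log2 change was 0.15 on chromosome 8, 0.13 on chromosome 18, and -0.13 on chromosomes 6 and 9. Libraries of one genotype lay within 0.033 (E12 wild type) and 0.042 (E47 knockout) of each other on every chromosome. On chromosome 8 the median was above 0 in all 7 windows of 20 Mb with enough genes. The cause was not tested. Taking the median of its chromosome from each gene changed some of the larger list medians little. That of the G2/M genes became -0.83, of the mesothelial and epithelial markers -1.75 and of the adventitial markers 2.08. The Hox median went from -0.19 to -0.06. Some medians near 0 changed sign: elastic fibre and cross-linking genes (-0.04 to 0.08), Notch genes (-0.06 to 0.05) and growth factors and receptors (-0.05 to 0.06).

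**Figure D5:**
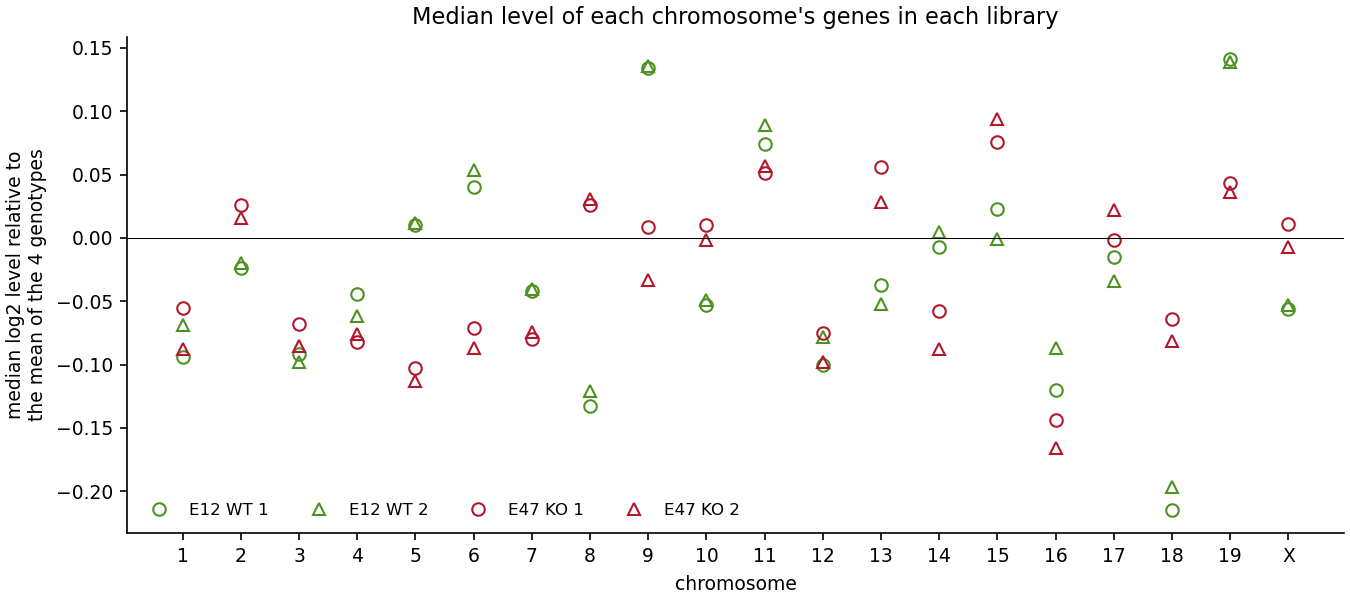
Median log2 level of each chromosome's genes (mean of at least 5 CPM) in each of the 4 libraries compared, relative to the mean of the 4 genotypes. Green (E12 wild type) and red (E47 knockout) symbols lie apart on chromosomes 5, 6, 8, 9, 18 and 19, and the circle and triangle of one genotype lie within 0.042 of each other.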

How the data were processed

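Bulk poly(A) RNA of cultured mouse aortic smooth muscle cells was sequenced from an unstranded library, per the labels' protocols. The authors deposited 1 table of raw read counts per gene. Per the submitters' processing notes, the tools were FastQC, HISAT and featureCounts, without versions, and the builds are given as GRCm38 and mm10. Libraries held 13909230 to 27517374 counts, which sets the precision. Columns were assigned by library name and genotype label. Symbols were matched to GENCODE M21 (53362 of 55353 lines).

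The 8 libraries were fitted together in edgeR 4.0.16 (R 4.3.3) with filterByExpr, TMM scaling and the quasi-likelihood test, 4 groups of 2, and the contrast E47 KO minus E12 WT (adjusted p threshold 0.05, Benjamini-Hochberg). The common BCV (biological coefficient of variation) came to 0.0598, with residual degrees of freedom of 4. Replicate numbers follow accession order. Alternatives were DESeq2 1.42.0, limma 3.58.1 (voom), RLE and upper-quartile scaling, other filters, a test against 1.5-fold, the 4 libraries alone and leaving out each library. Subtracting chromosome medians was added after seeing the data. In simulated data of 13472 tested genes the script recovered 36, 44, 50 and 50 of 50 genes changed 1.5-, 2-, 4- and 8-fold, with 9 false calls. The simulation gave every library the same spread and changed only these few genes. It lacked the wider spread of the E12 wild-type pair and the large share of genes called here. These rates therefore do not describe the comparison itself.

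The comparison and the 41 gene lists were chosen with earlier results of these data known. The naming rule took the 12 largest differences in each direction (mean of at least 2 CPM), up to 4 members per list and 5 per direction against both wild types. All other genes were named after their values were seen. Some genes that the rule names are not reported here. Date-like symbols are carried by 26 lines of counts; none was named. Library values in CPM are counts over effective library size.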

Additional observations from a re-analysis of the deposited data

How the results depend on the processing

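The numbers of higher and lower genes were 1962 to 2943 and 2024 to 2779 over every alternative but the test against a 1.5-fold change, which called 795 higher and 651 lower. Leaving out 1 library at a time gave 2007 to 2593 higher and 2024 to 2714 lower. DESeq2 shared 1962 of the 2598 higher and 2217 of the 2736 lower calls. Upper-quartile scaling moved the median of all genes by 0.04 log2 and gave 2943 higher and 2446 lower. Of 172 genes named by rule and past the test, 159 kept their call and direction under all alternatives except the 1.5-fold test, and 13 lost it under at least 1 of them. No direction of a called gene reversed. No paired analysis was possible because the labels number the libraries 1 to 8 with no replicate number shared between genotypes. Of genes in the lowest of 4 classes by level 26.4% were called, and 48.3% in the highest. The part of depth in this was not tested.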

Other observations

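Axon guidance and adhesion genes, which also steer vascular cells, counted 22 higher (50%) and 14 lower (31.8%) of 44. Their median log2 change was 0.41. Among all genes 18.6% were higher and 19.6% lower. Sema3c, a secreted semaphorin, stood at 149 and 151 against 474 and 441 CPM (log2 change 1.61, SE 0.07, edgeR adjusted p = 2.3e-10). Alcam, an adhesion receptor, stood at 32.9 and 34.5 against 107 and 116 CPM (log2 change 1.72, SE 0.08, edgeR adjusted p = 1.8e-10). Robo2, a receptor for Slit, was without a count in the E12 wild type against 2.55 and 2.74 CPM in the knockout libraries, at least 25.5-fold higher with 3 counts over the group as the floor.

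Vasoactive genes gave 11 higher (32.4%) and 9 lower (26.5%) of 34, where 18.6% of all genes were higher and 19.6% lower. Edn1, endothelin-1, was lower, at 57.4 and 59.9 against 22.3 and 22.1 CPM (log2 change -1.40, SE 0.08, edgeR adjusted p = 2.2e-09), while its receptor Ednra was without a count in the E12 wild type against 1.51 and 1.87 CPM in the knockout libraries. Rgs4, a regulator of G protein signalling, went from 0.574 and 0.523 to 11.2 and 9.69 CPM, and Adra1d, an adrenergic receptor, from 9.70 and 9.04 to 32.6 and 32.4 CPM. Ptgs2, the prostaglandin synthase COX-2, was lower by 0.69 log2 units. Of 28 glycolysis and hypoxia genes 10 were higher (35.7%) and 7 lower (25%), with a median log2 change of 0.12. When either E47 knockout library was left out the lower ones numbered 4. Car9, a carbonic anhydrase, was lower, at 9.44 and 9.42 against 0.988 and 0.668 CPM (log2 change -3.47, SE 0.28, edgeR adjusted p = 1.3e-07), and Slc16a3, a lactate exporter, by 1.63 log2 units, while Ndrg1 was higher by 1.8. Among retinoid genes Aldh1a2, which makes retinoic acid, rose by 0.93 log2 units. Of 20 imprinted growth genes tested 7 were higher (35%) and 3 lower (15%). Dlk1, an imprinted inhibitor of differentiation, was lower (log2 change -3.0, SE 0.24, edgeR adjusted p = 1.3e-07). Dlk1 had only 4 counts in the E47 wild type, and against it the knockout was higher (log2 change 3.30, SE 0.59, edgeR adjusted p = 0.00025). Rian, an imprinted RNA of the same cluster, was higher than in the E12 wild type (log2 change 1.12, SE 0.09, edgeR adjusted p = 8e-08) and the E47 wild type (0.68). Of 28 p53 targets 9 were higher and 7 lower; without E47 knockout library 2 the higher ones numbered 4, and without E12 wild-type library 2 the lower ones numbered 4. With all libraries, 32.1% of the p53 targets were higher and 25% lower, where 18.6% and 19.6% of all genes were. Fas, the death receptor, had a log2 change of 0.90 and Plk3, a stress-response kinase, of -1.01.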
